A study of Homo sapiens with 15 samples.

Results

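Cadherins and protocadherins are calcium-dependent adhesion proteins of the cell surface. The genes described here are the 75 rows of the deposited table whose symbol is PCDH followed by letters or digits, or CDH followed by digits, with CDH1, CDH2 and CDH19 left out. They are 75 of 18322 genes. Of these, 51 belong to the protocadherin gene clusters of chromosome 5 (16 PCDHA, 17 PCDHB and 18 PCDHG genes). The other 24 lie outside these clusters (13 cadherins and 11 non-clustered protocadherins), some of them also on chromosome 5. They were chosen by name, though with earlier results of these data known.

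The RNA came from A375 cells, an established human melanoma line whose BRAF kinase carries an activating mutation. Each of 5 groups had 3 libraries, given by the submitters as biological triplicates. The groups were Resistant-shMYC1 and Resistant-shMYC2 (cells of the resistant population labelled with one or the other short hairpin against MYC), Resistant (1 clonal population resistant to PLX4720, an inhibitor of mutant BRAF), Parental-MYC T58A (parental cells with the T58A form of the transcription factor MYC; MYC T58A for short) and Parental (the A375 line itself). All were A375 cells in normal culture at sub-confluence, and the labels give no drug exposure at harvest. Since Resistant is a single clone, its 3 libraries hold nothing of how one resistant population differs from another.

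MYC went against the hairpin labels: it averaged 486 ± 29.5 normalised reads in the libraries labelled shMYC1 and 7817 ± 259.8 in those labelled shMYC2, against 302 ± 28.1 in Resistant (mean ± SD, n = 3 each). It averaged 3511 ± 94.4 in MYC T58A, against 423 ± 11.9 in Parental. These groups are therefore called by their labels, and no direction is attributed to a loss of MYC. The libraries labelled shMYC2 correlated with the other 12 across genes at r = 0.807 to 0.829, while no pair among those 12 fell under 0.92. The labelled cell type is a melanocyte; the summed level of 6 melanocyte markers (SOX10, MITF, PMEL, DCT, TYRP1 and S100B) was 13098 to 15464 normalised reads per library in shMYC1, 191 to 244 in shMYC2, 3549 to 3988 in Resistant, 3579 to 3974 in MYC T58A and 6801 to 7102 in Parental. DCT had no read in the shMYC2 libraries, and SOX10, a transcription factor of the melanocyte lineage, averaged 11890.0 ± 1138, 19.5 ± 3.74, 7.50 ± 2.52, 9.14 ± 1.99 and 5282 ± 149 in the same order of groups. The sum rested mostly on SOX10 and on MITF, another such factor, and these did not move together: MITF averaged 1619.7, 173, 3748, 3592 and 1509. DCT and TYRP1, enzymes of pigment synthesis, averaged 78.6 and 60.3 in MYC T58A, against 1.04 and 3.81 in Parental. The libraries held 24222192 to 30399644 reads in genes.

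The clustered protocadherins share a common design. In the PCDHA and PCDHG clusters each variable first exon has its own promoter and encodes the whole extracellular part and membrane span, and it is spliced to constant exons that the genes of its cluster share, while PCDHB genes consist of a single exon. In neurons each cell uses a few of these promoters, chosen with the help of CTCF and cohesin, which bring a promoter and a distant enhancer together, and the resulting proteins bind like to like and let a neuron recognise its own branches. DNA methylation and SMCHD1 help to keep unused promoters silent. Classical cadherins bind beta-catenin and p120-catenin through their tails, whereas protocadherins do not, and signal partly through the WAVE complex and focal adhesion kinases.

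Short stretches of promoter are shown because the 3 clusters differ in an element that carries the letters CGCT. The sequences are RefSeq promoters (GRCh38.p14, 250 bases before to 50 after the start of a gene), which were found for 58 of the 75 members and 42 of the 51 clustered ones. Each line is 40 bases of the plus strand, the coding strand, with CGCT in capitals; the letters were chosen after the promoters had been read. The first 3 are PCDHA genes, the next 5 PCDHB genes and the last 3 PCDHG genes.
PCDHA5 (chr5:140821540-140821579): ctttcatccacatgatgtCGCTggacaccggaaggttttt
PCDHA6 (chr5:140827895-140827934): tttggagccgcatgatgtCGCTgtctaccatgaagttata
PCDHA7 (chr5:140834170-140834209): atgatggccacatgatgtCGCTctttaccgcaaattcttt
PCDHB2 (chr5:141094542-141094581): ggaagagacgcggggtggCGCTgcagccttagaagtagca
PCDHB5 (chr5:141135177-141135216): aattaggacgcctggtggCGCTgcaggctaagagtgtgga
PCDHB16 (chr5:141182308-141182347): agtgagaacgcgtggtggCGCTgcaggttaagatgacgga
PCDHB9 (chr5:141187072-141187111): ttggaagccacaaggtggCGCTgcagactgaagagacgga
PCDHB13 (chr5:141213863-141213902): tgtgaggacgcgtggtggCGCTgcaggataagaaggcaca
PCDHGA7 (chr5:141382647-141382686): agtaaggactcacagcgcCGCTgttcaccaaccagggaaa
PCDHGA10 (chr5:141412929-141412968): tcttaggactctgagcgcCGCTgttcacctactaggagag
PCDHGC3 (chr5:141475878-141475917): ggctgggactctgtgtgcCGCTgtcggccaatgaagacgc
Both strands were searched. GGTGGCGCT was in the promoter of all 13 PCDHB genes with one, against 0.501% of 35116 RefSeq promoters of the same length. GATGTCGCT was in 9 of 13 PCDHA genes, against 0.105%, and the exceptions were PCDHA9, PCDHA11, PCDHAC1 and PCDHAC2. CCGCTGT was in 8 of 16 PCDHG genes, PCDHGA7, PCDHGA10 and PCDHGC3 among them, against 3.89%, and in 0 of the 13 PCDHA and 0 of the 13 PCDHB genes. CGCT, which is part of all 3, was in 44 of 45 promoters of clustered genes, against 70% of all promoters. It was also in 24 of 26 promoters of the other members, so these 4 letters alone do not set the clusters apart. The core of the CTCF motif was in 1 of the 45, against 2.41%, and the MYC E-box CACGTG in 3 of the 45 (all PCDHA), against 7.26%. The CTCF match, in PCDHB9, overlaps its GGTGGCGCT. Only this exact core was searched, so the count does not say how many of these promoters hold a CTCF site. These matches describe the letters in the windows and say nothing of binding.

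Values are normalised reads, that is, reads per gene after scaling each library by its own size factor; the 3 values of a group stand in column order. Between the groups compared, the libraries did not overlap for 63.5% of tested genes in Resistant against Parental, 72.7% in MYC T58A against Parental, and 60.1% and 81.3% in shMYC1 and shMYC2 against Resistant. Log2 differences are on the log2(value + 1) scale, so changes of genes with few reads are understated. A gene is called when limma's test gave a Benjamini-Hochberg adjusted p under 0.05 over the 17012 genes with at least 10 normalised reads in at least 3 libraries. Of the members, 71 passed this filter (49 clustered and 22 others). CDH26, PCDH19, PCDHGA12 and PCDHGB6 did not. Reads in the constant exons may be counted for several genes of a cluster or for none: in GENCODE v29, a median of 46.6% of a PCDHA gene's exonic bases and of 41.95% of a PCDHG gene's overlapped another gene, against 0% to 9.4% for PCDHB genes. The sources used here do not say how such reads were counted, so values of single PCDHA and PCDHG genes are uncertain to that extent. PCDHB genes resemble one another in sequence, and reads that match several of them could be split or lost in the same way. PCDH20 shares 95.8% of its exonic bases with another gene. PCDHA14 shares 100% with other genes, so its values cannot be told from theirs.

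The clustered protocadherins had far fewer reads in the libraries labelled shMYC2 than in any other group. The 16 PCDHA genes together held 759, 647 and 683 normalised reads in the libraries labelled shMYC1, 12.9, 8.34 and 13.3 in those labelled shMYC2, 797, 818 and 838 in Resistant, 1337, 1472 and 1300.1 in MYC T58A and 921, 924 and 963 in Parental. The 17 PCDHB genes held 3254, 3429 and 3109.6 in shMYC1, 613, 572 and 562 in shMYC2, 2364, 2325 and 2228 in Resistant, 4054, 4132 and 4048 in MYC T58A and 2757, 2812 and 2843 in Parental. The 18 PCDHG genes held 2276, 1902 and 2026 in shMYC1, 501, 508 and 591 in shMYC2, 1154, 1177 and 1159 in Resistant, 1259, 1314 and 1298 in MYC T58A and 2174, 2226 and 2195 in Parental. In all 3 clusters the libraries labelled shMYC2 were the lowest, below every library of the other groups. Their PCDHA sum was 70.96-fold below that of Resistant, their PCDHB sum 3.96-fold and their PCDHG sum 2.18-fold. Sums over MYC T58A were highest for PCDHA and PCDHB, at 1.46 and 1.45 times the Parental sums, whereas the PCDHG sum there was 1.70-fold below that of Parental. These sums are a description over chosen genes and were not tested, and in such bulk samples fewer cells with a transcript and less transcript per cell cannot be told apart.

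**Figure D1:**
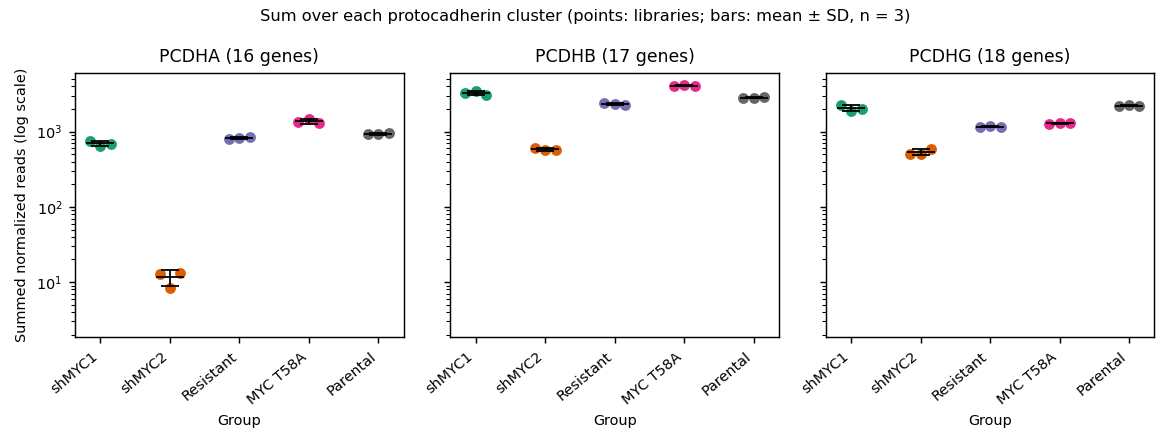
Summed normalised reads (log axis) of the 16 PCDHA, 17 PCDHB and 18 PCDHG genes in each library; points are the 15 libraries, by group. The PCDHA sum of the libraries labelled shMYC2 lies between 8.34 and 13.3, while every other library is at 647 or higher.

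Of the 51 clustered genes, 38 had a mean under 3 reads in the libraries labelled shMYC2, compared with 12.5% of all tested genes. In the libraries labelled shMYC1 and in Resistant this held for 4 genes each, where 3.69% and 2.76% of all tested genes were as low, and in MYC T58A and Parental for 0, against 5.06% and 2.6%. In 10 of the 51 genes no library labelled shMYC2 had a read, against 5.69% of all genes in the table, and a library without reads allows up to 3. The group labelled shMYC2 was the lowest for 47 of the 51 genes, and MYC T58A was the highest for 31. Among the 24 members outside the clusters, shMYC2 was the lowest for 16 and MYC T58A the highest for 3. The shares over all genes were not counted, so how far these counts exceed them is not known. The median level of the 49 tested clustered genes was 35.3 normalised reads in shMYC1, 0.7 in shMYC2, 29.4 in Resistant, 70.5 in MYC T58A and 42.8 in Parental, where the median over all tested genes was 402, 355, 414, 379.6 and 401.

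**Figure D2:**
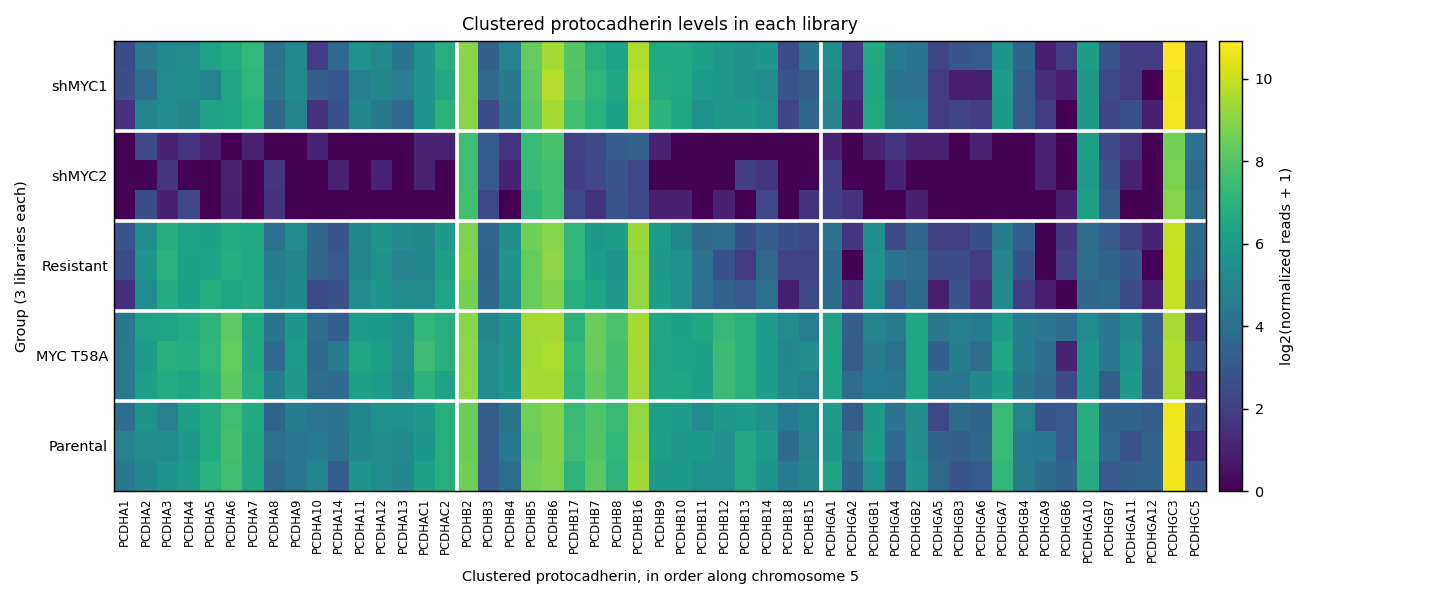
Normalised reads in each library (colour, log2(value + 1)) of the 51 clustered protocadherins in their order along chromosome 5, by group, 3 libraries each. The PCDHA genes are near 0 in the libraries labelled shMYC2, where PCDHB2, PCDHB5, PCDHB6, PCDHGA10, PCDHGC3 and PCDHGC5 are the members with a mean of at least 10.

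The makeup of the PCDHB and PCDHG sums also differed between groups. PCDHB2, PCDHB5 and PCDHB6 together made up 46.6, 47.6 and 47.5% of the PCDHB sum in the libraries labelled shMYC1, 94.02, 94.5 and 94.7% in those labelled shMYC2, 53.9, 55.6 and 53.1% in Resistant, 47.2, 47.4 and 48.4% in MYC T58A and 43.1, 41.5 and 41.9% in Parental. PCDHB16 made up 24.3, 25.3 and 24.7% in shMYC1, 1.58, 0.730 and 0.729% in shMYC2, 26.2, 24.4 and 25.1% in Resistant, 17.1, 17.04 and 16.6% in MYC T58A and 20.8, 21.4 and 23.2% in Parental. Both shares were chosen after the values had been seen. PCDHGC3, a C-type gene at the end of the PCDHG cluster, made up 84.8, 83.9 and 84.1% of the PCDHG sum in shMYC1, 79.3, 82.5 and 82.5% in shMYC2, 86.4, 84.7 and 85.7% in Resistant, 58.5, 60.6 and 60.1% in MYC T58A and 73.9, 74.2 and 75.3% in Parental. Its share was lowest in the MYC T58A libraries and higher in all libraries of the other groups.

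**Figure D3:**
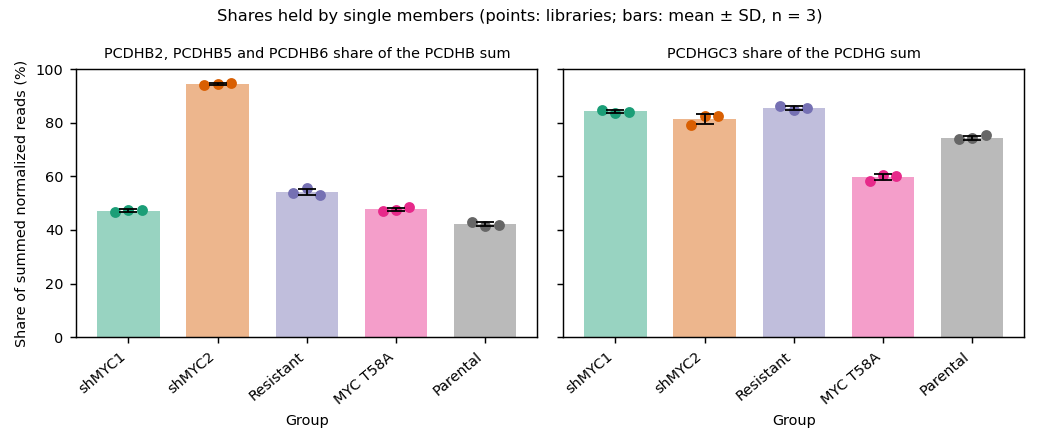
Share in percent of the PCDHB sum held by PCDHB2, PCDHB5 and PCDHB6, and of the PCDHG sum held by PCDHGC3, in each of the 15 libraries by group. The first share is between 94.0% and 94.7% in the libraries labelled shMYC2 and lower in the other 12; the second is between 58.5% and 60.6% in MYC T58A and higher in the other 12.

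The resistant clone was compared with its parental line. Of 49 clustered protocadherins, 29 were called, 5 higher and 24 lower in Resistant; of all tested genes 51.6% were called, 27.2% higher and 24.4% lower. The count called lower was 5 of 16 in PCDHA, 9 of 17 in PCDHB and 10 of 16 in PCDHG, and the genes called higher were PCDHA3, PCDHA9, PCDHB2, PCDHB4 and PCDHGC5. The median log2 difference was -0.72 over the 49 genes and -1.36 over PCDHG, against 0.01 over all tested genes. PCDHB13, PCDHB12 and PCDHB15 lie in the last stretch of the PCDHB cluster and PCDHGA7 and PCDHGA10 within PCDHG.

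PCDHB13 had 5.34, 2.82 and 7.28 in Resistant, against 65.4, 94.2 and 95.997 in Parental. The groups did not overlap. PCDHB13 was 16.6-fold lower in Resistant (difference of -3.86 on the log2 scale, SE 0.43, adjusted p = 1.09e-06). PCDHGA10 had 13.9, 14.1 and 11.8 in Resistant, against 109, 109.6 and 104 in Parental, and was 8.11-fold lower (difference of -2.93 on the log2 scale, SE 0.15, adjusted p = 2.78e-11). PCDHGA7 had 23.5, 28.2 and 36.4 in Resistant, against 162, 161 and 143 in Parental, and was 5.29-fold lower (difference of -2.38 on the log2 scale, SE 0.20, adjusted p = 1.48e-08). The Resistant libraries were low in both of these PCDHG genes, with every Parental library above them. PCDHB12 had 13.9, 5.64 and 10.01 in Resistant, against 58.1, 45.1 and 45.9 in Parental, and was 5.05-fold lower (difference of -2.29 on the log2 scale, SE 0.30, adjusted p = 3.57e-06). PCDHB15 had 4.27, 3.76 and 4.55 in Resistant, against 31.1, 25.6 and 30.3 in Parental, and was 6.92-fold lower (difference of -2.53 on the log2 scale, SE 0.38, adjusted p = 2.14e-05). All 3 Resistant libraries lay below all 3 Parental ones in these PCDHB genes as well.

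Other PCDHB genes did not move with these. PCDHB16 had 619, 567 and 558 in Resistant, against 572, 601 and 659 in Parental, and the groups overlapped (difference of -0.07 on the log2 scale, SE 0.20, adjusted p = 0.8). PCDHB6 had 485, 512 and 459.7 in Resistant, against 463, 465 and 443 in Parental, with difference of 0.09 on the log2 scale, SE 0.077, adjusted p = 0.374, and was not called either. PCDHA3 rose: it had 112, 124 and 105 in Resistant, against 25.96, 38.9 and 52.2 in Parental, and was 2.91-fold higher (difference of 1.57 on the log2 scale, SE 0.24, adjusted p = 2.13e-05). The PCDHGA9 transcript was down to a single read in the Resistant libraries, with 0, 0 and 0.910 in Resistant, against 6.23, 20.5 and 13.6 in Parental, and was 44.2-fold lower by the ratio of the means, with an exact Poisson interval of 7.06 to 1689 (difference of -3.40 on the log2 scale, SE 0.46, adjusted p = 5.68e-06). This interval covers counting error alone. PCDHGC3, the most abundant PCDHG gene, had 997, 996 and 993 in Resistant, against 1606, 1652 and 1654 in Parental, and was 1.64-fold lower (difference of -0.72 on the log2 scale, SE 0.073, adjusted p = 2.02e-07).

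MYC T58A cells were compared with the same Parental libraries, so the 2 comparisons share their controls. Of 49 clustered protocadherins, 22 were called, 18 higher and 4 lower in MYC T58A; of all tested genes 63.8% were called, 30.1% higher and 33.7% lower. The share of the 49 genes that was called, 44.9%, was below that of all genes. The genes called higher were 6 of 16 in PCDHA, 9 of 17 in PCDHB and 3 of 16 in PCDHG. The genes called lower were PCDHGA7, PCDHGA10, PCDHGB1 and PCDHGC3, all in PCDHG, where quantile normalisation gave 6 higher and 4 lower. The median log2 difference was 0.51 over the 49 genes, against -0.02 over all tested genes.

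PCDHGA11 had 35.1, 46.7 and 56.4 in MYC T58A, against 10.4, 6.15 and 9.39 in Parental, and was 5.33-fold higher in MYC T58A (difference of 2.29 on the log2 scale, SE 0.41, adjusted p = 8.87e-05). PCDHB3 had 30.1, 37.4 and 38.8 in MYC T58A, against 8.31, 8.19 and 7.30 in Parental, and was 4.46-fold higher (difference of 2.02 on the log2 scale, SE 0.31, adjusted p = 1.49e-05). In both genes the MYC T58A libraries lay above every Parental library, and above every library of the other groups. PCDHB12 had 152, 173 and 173 in MYC T58A, against 58.1, 45.1 and 45.9 in Parental, and was 3.34-fold higher (difference of 1.73 on the log2 scale, SE 0.30, adjusted p = 5.66e-05). PCDHB4 had 53.1, 50.9 and 54.6 in MYC T58A, against 17.7, 20.5 and 14.6 in Parental, and was 3.01-fold higher (difference of 1.55 on the log2 scale, SE 0.32, adjusted p = 0.000415). PCDHA9 had 55.1, 64.4 and 56.4 in MYC T58A, against 22.8, 18.4 and 18.8 in Parental, and was 2.93-fold higher (difference of 1.51 on the log2 scale, SE 0.21, adjusted p = 5.58e-06). None of these groups overlapped. PCDHGC3 had 736, 797 and 780.1 in MYC T58A, against 1606, 1652 and 1654 in Parental, and was 2.12-fold lower (difference of -1.09 on the log2 scale, SE 0.073, adjusted p = 5.27e-10), so that the largest contributor to the PCDHG sum fell while PCDHGA11, PCDHGB2 and PCDHGB3 rose. Of these, PCDHGA11 and PCDHGB3 passed the filter on low values only through the MYC T58A libraries, the group in which they were called higher.

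The libraries labelled shMYC1 were compared with Resistant, which was also compared with Parental and serves for shMYC2 too, so these comparisons share libraries. Of 49 clustered protocadherins, 28 were called, 21 higher and 7 lower in the libraries labelled shMYC1; of all tested genes 57.1% were called, 27% higher and 30.1% lower. Quantile normalisation gave 26 higher and 3 lower. The PCDHB cluster held 12 of the genes called higher, of 17, and PCDHB4 as the 1 called lower. PCDHG had 7 higher and 2 lower of 16 (9 and 1 after quantile normalisation). PCDHA had 2 higher and 4 lower of 16, and there the balance turned to 3 higher and 2 lower with quantile normalisation. The median log2 difference was 0.75 in PCDHB, 0.57 in PCDHG and -0.33 in PCDHA, against -0.03 over all tested genes.

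PCDHB13 had 47.6, 46.8 and 58.3 in the libraries labelled shMYC1, against 5.34, 2.82 and 7.28 in Resistant, and was 9.89-fold higher in shMYC1 (difference of 3.14 on the log2 scale, SE 0.43, adjusted p = 8.92e-06). PCDHB12 had 58.98, 56.5 and 56.4 in the libraries labelled shMYC1, against 13.9, 5.64 and 10.01 in Resistant, and was 5.82-fold higher (difference of 2.50 on the log2 scale, SE 0.30, adjusted p = 9.6e-07). PCDHB11 had 75.2, 63.5 and 45.9 in the libraries labelled shMYC1, against 12.8, 15.98 and 15.5 in Resistant, and was 4.17-fold higher (difference of 1.97 on the log2 scale, SE 0.23, adjusted p = 9.36e-07). These genes are neighbours in the PCDHB cluster, and in each the libraries labelled shMYC1 all lay above those of Resistant. PCDHB14, which follows PCDHB13, had 55.2, 37.05 and 46.8 in the libraries labelled shMYC1, against 8.54, 12.2 and 15.5 in Resistant, and was 3.84-fold higher (difference of 1.87 on the log2 scale, SE 0.41, adjusted p = 0.000975). PCDHGA10 had 68.5, 56.5 and 57.4 in the libraries labelled shMYC1, against 13.9, 14.1 and 11.8 in Resistant, and was 4.58-fold higher (difference of 2.11 on the log2 scale, SE 0.15, adjusted p = 1.44e-09). In these 5 genes the Resistant libraries were lower than both the shMYC1 and the Parental libraries. PCDHA3 fell: it had 36.1, 37.05 and 39.2 in the libraries labelled shMYC1, against 112, 124 and 105 in Resistant, and was 3.03-fold lower (difference of -1.57 on the log2 scale, SE 0.24, adjusted p = 1.68e-05). PCDHGC3 had 1931, 1595 and 1704 in the libraries labelled shMYC1, against 997, 996 and 993 in Resistant, and was 1.75-fold higher (difference of 0.80 on the log2 scale, SE 0.073, adjusted p = 3.54e-08).

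In the libraries labelled shMYC2, 45 of 49 clustered protocadherins were called against Resistant, 1 higher and 44 lower; of all tested genes 79.2% were called, 36.2% higher and 43% lower. All 16 PCDHA and all 17 PCDHB genes were lower, as were 11 of 16 PCDHG genes. Of the 49, 43 were called and lower by at least 1 on the log2 scale, against 25.5% of all tested genes. The median log2 difference was -5.09 in PCDHA, -2.91 in PCDHB and -1.64 in PCDHG, or -4.09, -2.35 and -1.34 with genes that had no read set to their bound (4, 2 and 3 genes). Over all tested genes it was -0.08. Quantile normalisation, which gives all libraries one distribution and so lifts values of 0, changed this split to 6 higher and 29 lower over the 49 genes. PCDHA then had 0 higher and 13 lower and PCDHB 1 and 12, while PCDHG turned to 5 higher and 4 lower, with a median of 0.16. That scaling moved the median over all genes to 0.15, and total-count scaling moved it to -0.22.

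PCDHB16 had 9.69, 4.17 and 4.09 in the libraries labelled shMYC2, against 619, 567 and 558 in Resistant, and was 97.1-fold lower (difference of -6.47 on the log2 scale, SE 0.20, adjusted p = 3.43e-13). PCDHA7 had 1.08, 0 and 0 in the libraries labelled shMYC2, against 101, 95.9 and 102 in Resistant, so that 1 library labelled shMYC2 held a single read. It was 278-fold lower by the ratio of the means, with an exact Poisson interval of 50.9 to 11319 (difference of -6.30 on the log2 scale, SE 0.22, adjusted p = 1.23e-14). PCDHA5 had 1.08, 0 and 0 in the libraries labelled shMYC2, against 75.8, 78.03 and 109 in Resistant, and was 244-fold lower by the ratio of the means, with an exact Poisson interval of 45.1 to 10041 (difference of -6.10 on the log2 scale, SE 0.33, adjusted p = 1.97e-11). PCDHA6 had 0, 1.04 and 1.02 in the libraries labelled shMYC2, against 106, 111 and 85.6 in Resistant, and was 146-fold lower by the ratio of the means, with an exact Poisson interval of 39.5 to 1192 (difference of -5.98 on the log2 scale, SE 0.22, adjusted p = 1.93e-14). PCDHAC2, a C-type gene next to the constant exons, had 1.08, 0 and 0 in the libraries labelled shMYC2, against 58.7, 73.3 and 82.8 in Resistant, and was 199.6-fold lower by the ratio of the means, with an exact Poisson interval of 36.8 to 8215 (difference of -5.82 on the log2 scale, SE 0.25, adjusted p = 2.36e-13). These intervals cover counting error at the 95% level and no variation between libraries. In all 5 genes the libraries labelled shMYC2 lay below every other library of the study.

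Of the clustered genes, 10 had no read in any library labelled shMYC2. Among them, PCDHA11 had 32.02, 30.1 and 42.8 normalised reads in Resistant, PCDHA13 35.2, 27.3 and 38.2 and PCDHA9 37.4, 29.1 and 32.8. PCDHGA7 had 23.5, 28.2 and 36.4 there and PCDHB11 12.8, 15.98 and 15.5. With 3 reads allowed in each library without one, PCDHA11 was at least 11.1-fold lower (adjusted p = 1.78e-12), PCDHA13 at least 10.7-fold lower (adjusted p = 2.09e-12) and PCDHA9 at least 10.5-fold lower (adjusted p = 1.12e-13). PCDHGA7 was at least 9.34-fold lower (adjusted p = 8.66e-14) and PCDHB11 at least 4.70-fold lower (adjusted p = 1.75e-11). PCDHA1, PCDHB18, PCDHGB3 and PCDHGB4 were also without reads, but at means of 4.31, 3.34, 4.76 and 5.64 in Resistant the bounds were only 1.37, 1.06, 1.51 and 1.79-fold. Their highest group means were 21.3, 35.2 and 22.1 in MYC T58A and 24.5 in Parental. PCDHGA12, the tenth, was not tested.

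A few clustered genes kept reads in the libraries labelled shMYC2. PCDHB2 had 192, 188 and 196 in the libraries labelled shMYC2, against 431, 456 and 394 in Resistant, and was 2.23-fold lower (difference of -1.15 on the log2 scale, SE 0.066, adjusted p = 1.6e-11). PCDHB5 had 165, 159 and 138 in the libraries labelled shMYC2, against 359, 323 and 329.6 in Resistant, and was 2.19-fold lower (difference of -1.13 on the log2 scale, SE 0.083, adjusted p = 5.3e-10). PCDHB6 had 219.6, 194 and 197 in the libraries labelled shMYC2, against 485, 512 and 459.7 in Resistant, and was 2.38-fold lower (difference of -1.25 on the log2 scale, SE 0.077, adjusted p = 3.61e-11). These 3 lie near the start of the PCDHB cluster, with PCDHB3 and PCDHB4 between PCDHB2 and PCDHB5. PCDHB4 did not keep its reads, averaging 1.07 in shMYC2, against 44.5 in Resistant, and PCDHB3 averaged 6.31, against 10.9. The fall of PCDHB2, PCDHB5 and PCDHB6 was small beside that of PCDHB16, whose promoter holds the same GGTGGCGCT as those of PCDHB2 and PCDHB5. PCDHGC3 had 397, 419 and 488 in the libraries labelled shMYC2, against 997, 996 and 993 in Resistant, and was 2.29-fold lower (difference of -1.20 on the log2 scale, SE 0.073, adjusted p = 3.5e-11). PCDHGA10 was the 1 clustered gene called higher: it had 72.1, 63.6 and 72.6 in the libraries labelled shMYC2, against 13.9, 14.1 and 11.8 in Resistant, and was 5.23-fold higher (difference of 2.31 on the log2 scale, SE 0.15, adjusted p = 1.03e-10). PCDHGC5 had 16.1, 12.5 and 15.3 in the libraries labelled shMYC2, against 12.8, 11.3 and 6.37 in Resistant, and was not called (difference of 0.53 on the log2 scale, SE 0.40, adjusted p = 0.226). Neither were PCDHGA2, PCDHGA9 and PCDHGB7.

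The remaining clustered genes can be set out by their means. PCDHB7 averaged 126 normalised reads in shMYC1, 3.51 in shMYC2, 70.9 in Resistant, 327 in MYC T58A and 262 in Parental, and PCDHB8 averaged 82.1, 7.003, 58.7, 213 and 149. In Resistant both were below Parental (log2 differences -1.89 and -1.33, adjusted p = 2.32e-07 and 1.08e-06). PCDHAC1, the other C-type gene of PCDHA, averaged 50.8 in shMYC1, 0.707 in shMYC2, 33.1 in Resistant, 151 in MYC T58A and 63.2 in Parental, and it was called in all 4 comparisons. PCDHGB1, called lower in MYC T58A than in Parental, averaged 94.2, 0.359, 42.5, 24.6 and 57.6 in the same order. PCDHB17, PCDHB18 and PCDHA14 are pseudogenes in RefSeq, and they averaged 138, 3.34 and 6.46 in Resistant. Each of them was called lower in the libraries labelled shMYC2 (log2 differences -4.96, -1.95 and -2.55). PCDHA14 has no exonic base of its own in GENCODE v29, so its level and call may come from reads of other genes. PCDHGA12 and PCDHGB6, which were not tested, reached means of 9.66 and 8.29 in Parental, their highest group.

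The 24 cadherins and protocadherins outside the clusters were called in both directions in every comparison, with more lower than higher (9 and 9 in shMYC1 after quantile normalisation). Of 22 tested, 17 were called in Resistant against Parental (7 higher and 10 lower), 17 in MYC T58A against Parental (5 and 12), 20 in shMYC1 against Resistant (9 and 11) and 19 in shMYC2 against Resistant (4 and 15, or 7 and 11 after quantile normalisation). Of the 22, 45.5%, 54.5%, 50% and 68.2% were thus lower, against 24.4%, 33.7%, 30.1% and 43% of all tested genes. All tested genes were called in either direction at 51.6%, 63.8%, 57.1% and 79.2%. The median log2 differences over the 22 genes were -0.48, -0.72, -0.59 and -1.53.

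**Figure D4:**
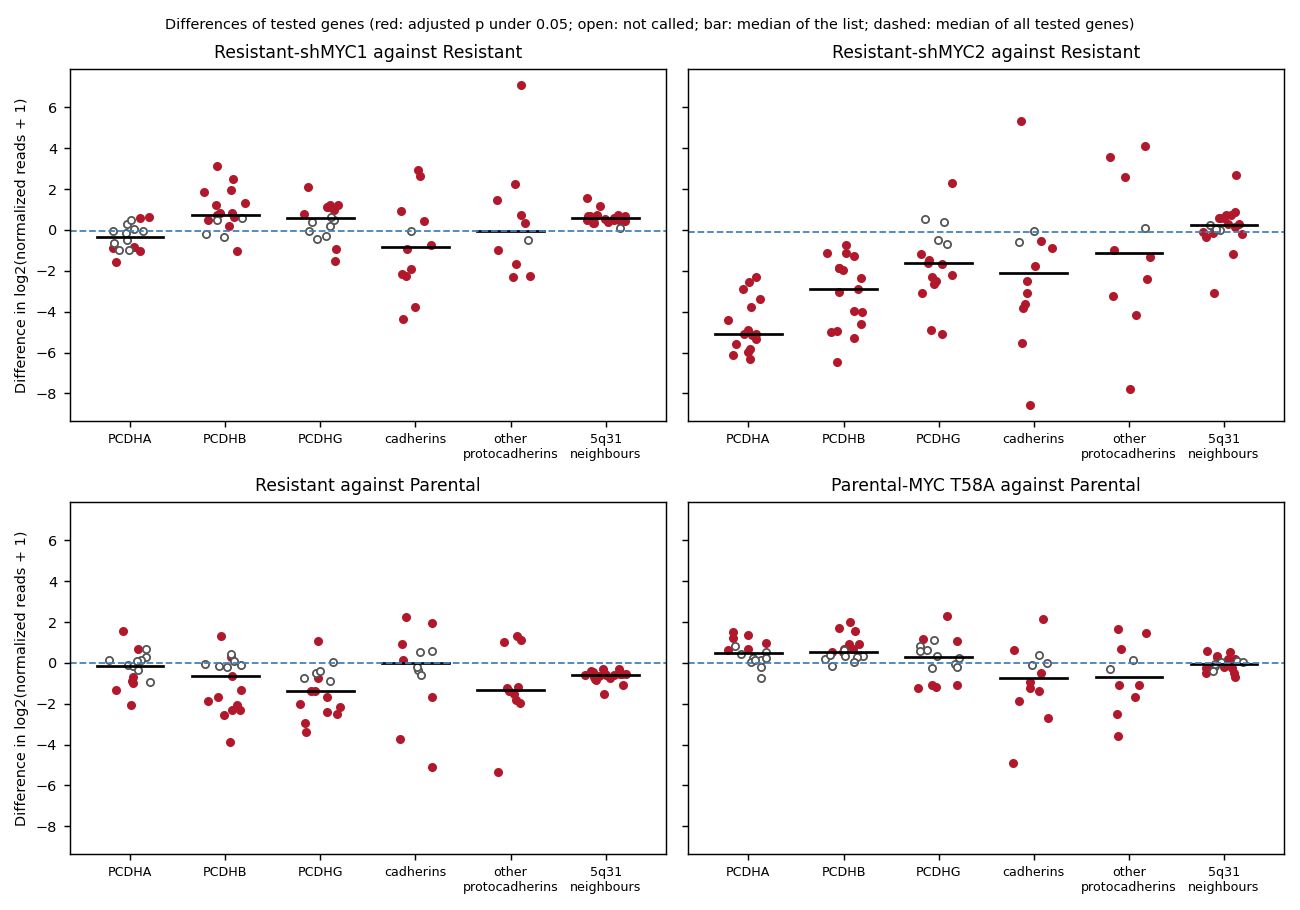
Log2 differences on the log2(value + 1) scale of PCDHA, PCDHB, PCDHG, the other members and the 5q31 neighbours in the 4 comparisons, 1 point per tested gene. The PCDHA genes lie between -6.30 and -2.30 in shMYC2 against Resistant, and the other members run from -8.56 to 5.31 there.

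PCDH1, a delta-type protocadherin of epithelia and the airway, had its highest levels in the libraries labelled shMYC1. It had 1888, 1394 and 1711 normalised reads in the libraries labelled shMYC1, 1.08, 0 and 5.11 in those labelled shMYC2, 7.47, 11.3 and 16.4 in Resistant, 40.1, 48.8 and 36.1 in MYC T58A and 498, 496 and 502 in Parental. The libraries labelled shMYC1 and the Parental ones were high, and the other 3 groups low. PCDH1 was 142-fold higher in shMYC1 than in Resistant (difference of 7.08 on the log2 scale, SE 0.48, adjusted p = 3.83e-08), and in Resistant it was 42.6-fold lower than in Parental (difference of -5.36 on the log2 scale, SE 0.48, adjusted p = 8.13e-07). In MYC T58A it was 11.96-fold lower than in Parental (difference of -3.56 on the log2 scale, SE 0.48, adjusted p = 2.55e-05).

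PCDH9, a delta protocadherin of the brain, had 514, 419.9 and 490.4 in shMYC1, 1146, 1097 and 1226 in shMYC2, 96.05, 94.01 and 102 in Resistant, 821, 809 and 747 in MYC T58A and 279, 288 and 282 in Parental. Resistant was the lowest group, with no overlap with any other. PCDH9 was 4.88-fold higher in shMYC1 (difference of 2.27 on the log2 scale, SE 0.077, adjusted p = 4.99e-14) and 11.9-fold higher in shMYC2 (difference of 3.56 on the log2 scale, SE 0.077, adjusted p = 1.04e-17) than in Resistant. Against Parental, Resistant was 2.91-fold lower (difference of -1.53 on the log2 scale, SE 0.077, adjusted p = 1.83e-11). PCDH10, another delta protocadherin, had 936, 802 and 808 in shMYC1, 63.5, 40.7 and 61.4 in shMYC2, 544, 477 and 519 in Resistant, 210.4, 234 and 187 in MYC T58A and 1179.5, 1237 and 1212 in Parental. The 5 groups did not overlap, in the order Parental, shMYC1, Resistant, MYC T58A and shMYC2 going down. PCDH10 was 5.75-fold lower in MYC T58A than in Parental (difference of -2.52 on the log2 scale, SE 0.13, adjusted p = 4.08e-11).

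PCDH11X, the X-linked delta protocadherin, had 2.85, 0 and 2.87 in shMYC1, 71.1, 69.9 and 71.6 in shMYC2, 12.8, 7.52 and 13.7 in Resistant, 11.02, 16.6 and 14.98 in MYC T58A and 44.6, 53.3 and 41.7 in Parental. It was highest in the libraries labelled shMYC2. In Resistant PCDH11X was 4.11-fold lower than in Parental (difference of -1.98 on the log2 scale, SE 0.40, adjusted p = 0.000428), with 2.58 on the log2 scale for shMYC2 against Resistant (adjusted p = 1.1e-05). PCDH15, known from the tip links of hair cells, was also higher in those libraries: it had 93.7, 100.1 and 105 in the libraries labelled shMYC2, against 5.34, 3.76 and 5.46 in Resistant, and was 20.5-fold higher (difference of 4.12 on the log2 scale, SE 0.33, adjusted p = 1.71e-09). Its MYC T58A libraries had 49.1, 41.5 and 51.1, against 10.4, 23.6 and 11.5 in Parental, without overlap.

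PCDH20 had 45.7, 42.3 and 46.8 in shMYC1, 0, 0 and 0 in shMYC2, 229, 221 and 207 in Resistant, 57.1, 41.5 and 52.004 in MYC T58A and 112, 102 and 109.6 in Parental. With no read in any library labelled shMYC2 it was at least 69.7-fold lower than in Resistant (difference of -7.78 on the log2 scale, SE 0.16, adjusted p = 6.8e-18). PCDH12, a protocadherin of endothelial cells and the placenta, had 25.7, 22.9 and 26.8 in shMYC1, 1.08, 1.04 and 1.02 in shMYC2, 38.4, 33.8 and 33.7 in Resistant, 12.02, 15.6 and 9.70 in MYC T58A and 17.7, 15.4 and 13.6 in Parental. The libraries labelled shMYC2 held 1 read each, and PCDH12 was there 33.7-fold lower by the ratio of the means, with an exact Poisson interval of 11.2 to 165 (difference of -4.15 on the log2 scale, SE 0.23, adjusted p = 1.14e-11). PCDH7 averaged 134 in shMYC1, 444 in shMYC2, 421 in Resistant, 184 in MYC T58A and 166 in Parental; it was higher in Resistant than in Parental (log2 difference 1.33, adjusted p = 2.81e-09) and not called in shMYC2 (0.08, adjusted p = 0.454). PCDH17 averaged 313, 97.9, 244, 1378 and 849.5 in the same order, and PCDH18 114, 20.5, 40.8, 43.7 and 91.8. PCDH17 was highest in MYC T58A and PCDH18 in shMYC1. PCDH19, not tested, averaged at most 9.25, in shMYC1.

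CDH11, the OB-cadherin of mesenchymal cells and osteoblasts, was the cadherin with the widest range. It had 39.95, 34.4 and 29.6 in shMYC1, 0, 1.04 and 0 in shMYC2, 485, 465 and 483 in Resistant, 1.00, 6.23 and 1.76 in MYC T58A and 95.5, 92.2 and 118 in Parental. Resistant was the highest group and shMYC2, with 1 read in 3 libraries, the lowest. CDH11 was 4.69-fold higher in Resistant than in Parental (difference of 2.23 on the log2 scale, SE 0.37, adjusted p = 6.81e-05) and 33.97-fold lower in MYC T58A than in Parental (difference of -4.90 on the log2 scale, SE 0.37, adjusted p = 3.11e-09). It was 13.8-fold lower in shMYC1 than in Resistant (difference of -3.76 on the log2 scale, SE 0.37, adjusted p = 1.2e-07). In shMYC2 it was 1374-fold lower by the ratio of the means, with an exact Poisson interval of 245 to 54078 (difference of -8.56 on the log2 scale, SE 0.37, adjusted p = 3.7e-13). The summed level of 8 fibroblast markers was also highest in Resistant, at 335 to 348 normalised reads per library in shMYC1, 2428 to 2523 in shMYC2, 3711 to 3925 in Resistant, 360.5 to 431 in MYC T58A and 352 to 413 in Parental, with none of the 8 at 0 in a whole group. Different markers carried the sum: LUM averaged 3.86 in shMYC2 and 3051 in Resistant, THY1 averaged 1949.5 in shMYC2 and 2.44 in Resistant, and PDGFRA averaged 14.8 in Resistant, against 40.1 in Parental. Their part in the result was not tested.

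CDH6, the K-cadherin, had 67.5, 51.2 and 79.3 in shMYC1, 0, 1.04 and 0 in shMYC2, 9.60, 10.3 and 9.10 in Resistant, 218, 215 and 209.8 in MYC T58A and 135, 142 and 141 in Parental. In Resistant CDH6 was 14.4-fold lower than in Parental (difference of -3.72 on the log2 scale, SE 0.24, adjusted p = 6.38e-10) and 6.82-fold higher in shMYC1 than in Resistant (difference of 2.63 on the log2 scale, SE 0.24, adjusted p = 4.53e-08). CDH4, the R-cadherin, had 26.6, 8.82 and 22.9 in shMYC1, 1.08, 1.04 and 0 in shMYC2, 1.07, 0.940 and 2.73 in Resistant, 36.1, 30.1 and 39.7 in MYC T58A and 90.3, 80.9 and 79.3 in Parental. In both genes Resistant and shMYC2 were low and the other groups higher, without overlap. Set against Parental, CDH4 in Resistant was 52.9-fold lower by the ratio of the means, with an exact Poisson interval of 21.9 to 161 (difference of -5.10 on the log2 scale, SE 0.39, adjusted p = 4.44e-09).

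CDH7, a type II cadherin, had 2.85, 1.76 and 3.82 in shMYC1, 0, 1.04 and 1.02 in shMYC2, 72.6, 69.6 and 81.02 in Resistant, 12.02, 17.7 and 21.2 in MYC T58A and 108, 131 and 103 in Parental. Both hairpin groups were near 0, while Resistant and Parental were high. CDH7 was 26.4-fold lower in shMYC1 (difference of -4.34 on the log2 scale, SE 0.31, adjusted p = 1.15e-09). In shMYC2 it was 108-fold lower by the ratio of the means, with an exact Poisson interval of 29.2 to 887 (difference of -5.55 on the log2 scale, SE 0.31, adjusted p = 8.04e-12). In MYC T58A it was 6.74-fold lower than in Parental (difference of -2.71 on the log2 scale, SE 0.31, adjusted p = 4.63e-07). CDH10, also of type II, was high in 1 group: it had 108, 112 and 134 in MYC T58A, against 36.3, 23.6 and 19.8 in Parental, and was 4.44-fold higher (difference of 2.15 on the log2 scale, SE 0.24, adjusted p = 4.35e-07). In the other 3 groups it averaged 19.3 (shMYC1), 19.2 (shMYC2) and 20.4 (Resistant). CDH18, a further type II cadherin, was high in the libraries labelled shMYC2 alone: it had 621, 666 and 707 in the libraries labelled shMYC2, against 17.1, 22.6 and 10.01 in Resistant, and was 40.2-fold higher (difference of 5.31 on the log2 scale, SE 0.28, adjusted p = 4.15e-12). The other groups ranged from 8.12 in shMYC1 to 24.5 in MYC T58A.

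**Figure D5:**
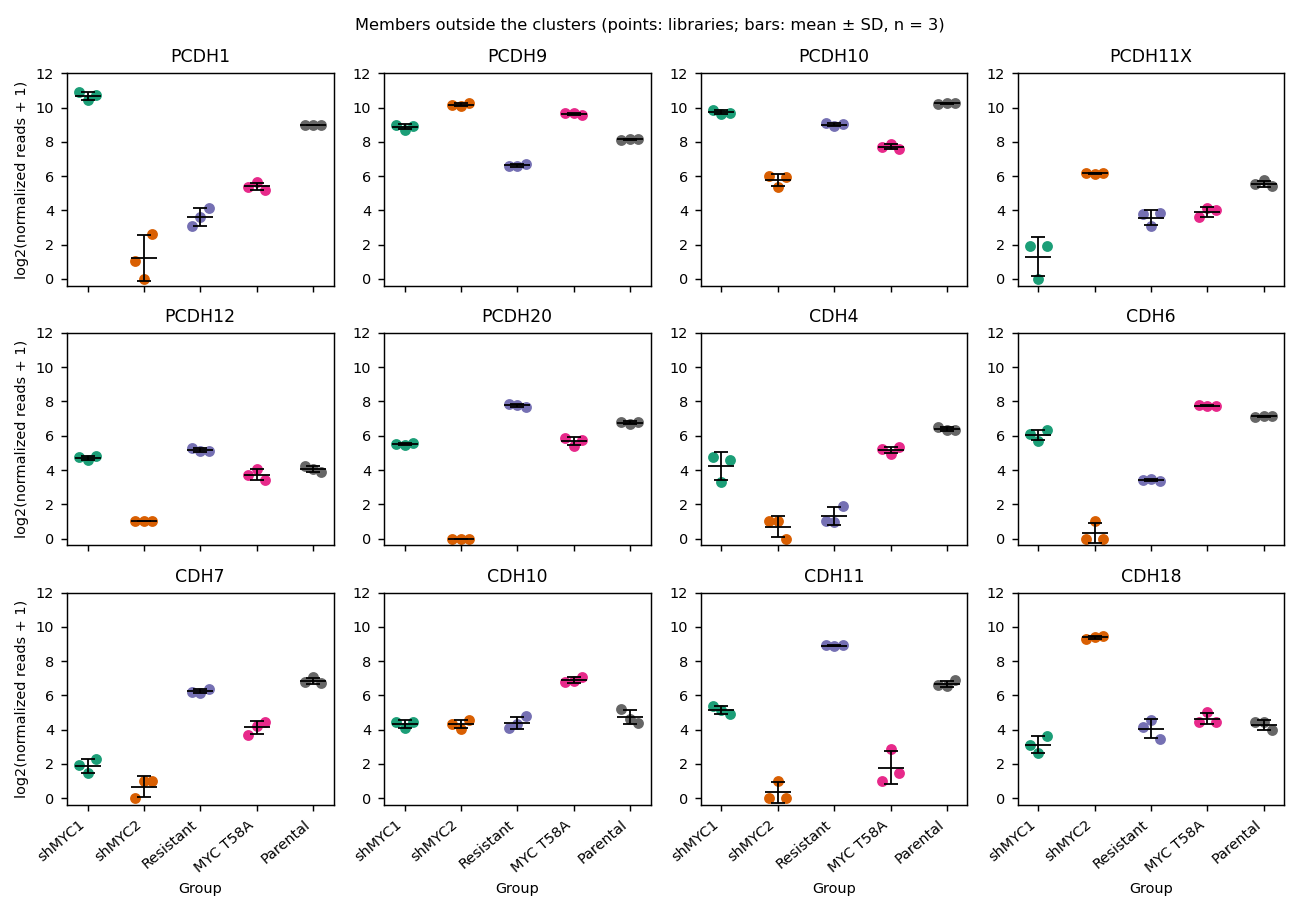
Normalised reads on the log2(value + 1) scale in each of the 15 libraries, by group, of 12 members outside the clusters (PCDH1, PCDH9, PCDH10, PCDH11X, PCDH12, PCDH20, CDH4, CDH6, CDH7, CDH10, CDH11 and CDH18), 1 panel each, all with the same axis range. Before the log2 step, CDH18 stands at 621 to 707 normalised reads in the libraries labelled shMYC2 and far lower in the other 12. PCDH1 stands at 1394 to 1888 in those labelled shMYC1.

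CDH13, the T-cadherin, is held by a lipid anchor and lacks the tail that binds catenins. It averaged 5398 ± 195 normalised reads in shMYC1, 704 ± 41.2 in shMYC2, 3979 ± 127 in Resistant, 2512 ± 101 in MYC T58A and 3555 ± 58.5 in Parental, and the groups did not overlap. It was 5.65-fold lower in shMYC2 than in Resistant (difference of -2.50 on the log2 scale, SE 0.05, adjusted p = 3.54e-18). CDH12 averaged 313 in shMYC1, 114 in shMYC2, 166 in Resistant, 491 in MYC T58A and 525 in Parental, and was lower in Resistant than in Parental (-1.66, adjusted p = 5.62e-11). CDH24 averaged 151, 134, 248, 131 and 130.1, and CDH8 6.17, 8.34, 29.9, 9.76 and 19.3, in the same order; both were highest in Resistant. CDH3 (P-cadherin), CDH5 (VE-cadherin of the endothelium) and CDH26 stayed low in all groups, with means of at most 17.1, 15.4 and 8.99, each in Resistant.

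Levels of different genes were compared per kilobase of exonic sequence that no other gene overlaps, which leaves out genes with under 1000 such bases. On that scale PCDHGC3 and CDH13 were the highest members in 4 groups, though PCDHB6 was level with CDH13 in MYC T58A (224.4 against 224.5). PCDHGC3 had 536 normalised reads per kilobase in shMYC1, 306 in Resistant, 237 in MYC T58A and 504 in Parental. CDH13 had 482, 356, 224 and 318 in the same groups. In the libraries labelled shMYC2 the highest were CDH18 with 137 and PCDHGC3 with 134, ahead of CDH13 with 62.9. These lengths come from GENCODE v29 and are approximate, since the sources used here name no build or annotation for the table. All reads of a gene were divided by these bases, so any reads counted in shared exons raise its level. For PCDHGC3, 40.2% of the exonic bases are shared, so its rank is uncertain.

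Partners of the members were taken from lists of catenins, of factors that shape or silence the protocadherin locus, of atypical cadherins and calsyntenins, and of proteases and cytoplasmic partners. Of 65 tested genes of these lists, 33 were called in Resistant against Parental (19 higher and 14 lower), 45 in MYC T58A against Parental (20 and 25), 41 in shMYC1 (16 and 25) and 57 in shMYC2 (27 and 30) against Resistant. The percentages called, 50.8%, 69.2%, 63.1% and 87.7%, were set against 51.6%, 63.8%, 57.1% and 79.2% of all tested genes.

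Among the catenins, beta-catenin (CTNNB1) and p120-catenin (CTNND1) moved little: CTNNB1 ran from -0.37 to 0.39 on the log2 scale over the 4 comparisons, and CTNND1 stood at -0.23 in MYC T58A, -0.14 in shMYC1 and -0.19 in shMYC2. Plakoglobin (JUP), which can replace beta-catenin at junctions, had 5.01, 5.19 and 7.05 in MYC T58A, against 91.4, 67.6 and 78.3 in Parental (difference of -3.57 on the log2 scale, SE 0.23, adjusted p = 2.67e-10). It had 1.08, 1.04 and 1.02 in shMYC2, against 90.7, 64.9 and 83.8 in Resistant (difference of -5.29 on the log2 scale, SE 0.23, adjusted p = 2.37e-13). Both falls left few reads, and in the other comparisons JUP was not called. CTNND2, the delta-catenin of neurons, was likewise lower in MYC T58A (-2.30, adjusted p = 2.63e-06) and shMYC2 (-5.22, adjusted p = 1.46e-11).

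Of the locus factors, SMCHD1 averaged 2045 ± 55.1 normalised reads in shMYC1, 4675 ± 269 in shMYC2, 2181 ± 129.9 in Resistant, 5132 ± 407 in MYC T58A and 1926 ± 29.9 in Parental. It was higher in shMYC2 than in Resistant (difference of 1.10 on the log2 scale, SE 0.059, adjusted p = 5.86e-12) and in MYC T58A than in Parental (difference of 1.41 on the log2 scale, SE 0.059, adjusted p = 8.92e-13), that is, in the group with the lowest clustered sum and in the group with the highest. CTCF moved by at most 0.18 on the log2 scale in either direction (-0.17, 0.03, 0.18 and -0.15 in Resistant, MYC T58A, shMYC1 and shMYC2). The cohesin subunit STAG2 averaged 311 ± 14.7 in shMYC2, against 5309.8 ± 207 in Resistant (difference of -4.09 on the log2 scale, SE 0.051, adjusted p = 6.67e-21), and was also lower in shMYC1 (-0.90, adjusted p = 6.29e-11). The cohesin loader NIPBL was lower in Resistant than in Parental (-0.91, adjusted p = 2.41e-09) and higher in shMYC2 (1.14, adjusted p = 1.78e-11) and shMYC1 (0.73, adjusted p = 3.2e-08) than in Resistant. The DNA methyltransferase DNMT3A was higher in shMYC2 (2.73, adjusted p = 3.78e-12), and the DNA demethylase TET1 was lower there (-2.10, adjusted p = 6.93e-11). The part of these genes in the protocadherin levels was not tested.

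The atypical cadherins changed most in the libraries labelled shMYC2. The planar polarity cadherins CELSR1 and CELSR2 averaged 9.73 ± 2.39 and 5.63 ± 2.80 there, against 499 ± 41.1 and 630.3 ± 62.9 in Resistant (log2 differences -5.56 and -6.66, adjusted p = 4.3e-17 and 2.28e-13). FAT4 averaged 1979 ± 173, against 529 ± 90.8 in Resistant (difference of 1.91 on the log2 scale, SE 0.11, adjusted p = 1.23e-11), and FAT3 was higher in shMYC1 (1.95, adjusted p = 9.69e-07) and lower in MYC T58A than in Parental (-2.57, adjusted p = 2.93e-08). Of the cytoplasmic partners, the WAVE complex member WASF3 averaged 2.44 ± 2.16 in shMYC2, against 771 ± 45.8 in Resistant (difference of -8.11 on the log2 scale, SE 0.46, adjusted p = 9.37e-09). CYFIP2, another subunit of that complex, was higher in MYC T58A than in Parental (1.79, adjusted p = 1.03e-11). The protease ADAM10, which sheds cadherins, moved by -0.13 to 0.32.

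The genes around the clusters on chromosome 5 were read in the same way. Of 19 tested neighbours, 19 were called lower in Resistant than in Parental, against 24.4% of all tested genes, with a median log2 difference of -0.58. In shMYC1 against Resistant, 18 of the 19 were called higher, against 27% of all tested genes, with a median of 0.58. In MYC T58A against Parental 6 were higher and 7 lower (median -0.05; 30.1% and 33.7% of all tested genes), and in shMYC2 against Resistant 10 were higher and 6 lower (median 0.24; 36.2% and 43% of all tested genes). The members PCDH1 and PCDH12 also lie on chromosome 5 past the PCDHG cluster and were not counted among these neighbours. PCDH12 went the other way, with means of 15.5 in Parental, 35.3 in Resistant and 25.1 in shMYC1. PCDH1 averaged 499, 11.7 and 1664 in the same order. TAF7, a general transcription factor gene that lies between PCDHB and PCDHG, had 2671, 2543 and 2358 in Resistant, against 3553, 3795 and 3605 in Parental (difference of -0.53 on the log2 scale, SE 0.062, adjusted p = 9.81e-07). It had 3109, 3497 and 3334 in the libraries labelled shMYC1, against 2671, 2543 and 2358 in Resistant (difference of 0.39 on the log2 scale, SE 0.062, adjusted p = 2.88e-05). In shMYC2 it moved by 0.29 (adjusted p = 0.000285), while the 17 PCDHB genes on one side of it were called lower (12 of them after quantile normalisation, which gave 1 higher).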

How the data were processed

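The authors deposited 1 table of signal values: read counts per gene after division by a size factor of the library. This was read from the values, of which 100% came out as whole reads within a tolerance of 0.01. Trim Galore, cutadapt, STAR, HTSeq and DESeq2 were used, per the submitters' processing notes; the sources used here do not give versions, build, annotation or strand setting. Per the labels' protocols, RNA was extracted with Qiagen RNeasy and libraries were made with the Kapa Stranded mRNA kit.

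The 17012 genes that reached 10 normalised reads in 3 or more libraries (1310 did not) were fitted on log2(value + 1) with limma 3.58.1 (trend, robust; R 4.3.3), with 1 mean for each of the 5 groups over all 15 libraries, and p-values were adjusted by Benjamini-Hochberg over these genes. They rest only on the spread between libraries of the same group, pooled for each gene over the 5 groups and drawn toward that of genes at similar levels. The spread in groups that were not compared thus enters each p-value. An exact permutation test of 3 against 3 cannot go below p = 0.1. Libraries of a group differed by more than sampling noise (chi-square per gene 1.61 to 26.9). The values 26.9 and 18.3 both came from pairs with library 2 of those labelled shMYC1, and all other pairs reached at most 7.5. The fit was tested on simulated data, with changes placed only in genes of higher level and the same added spread for every gene. That test does not cover members with few reads. As alternatives, edgeR 4.0.16 and DESeq2 1.42.0 were run on the recovered reads.

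Given in full were, per comparison, up to 5 clustered and 5 other members of largest absolute log2 difference, called and with 20 or more normalised reads on average in the higher group, and members without a read in a whole group that averaged 20 or more in another. Further members and genes were named after their values had been seen. The members and lists were chosen with earlier results of these data known. Counting intervals are exact Poisson intervals of 95% and cover counting error only.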

Additional observations from a re-analysis of the deposited data

How the results depend on the processing

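Each count was recomputed with other normalisations, filters, pseudocounts, thresholds, tools and samples. For clustered protocadherins, a pseudocount of 0.1 left 19 calls in Resistant, 14 in MYC T58A (both against Parental) and 17 in shMYC1 against Resistant, and a minimum change of 0.5 gave 18, 12 and 9. A filter of 50 normalised reads left 31 of the 49 genes and 19 calls in Resistant against Parental, and an adjusted p under 0.01 gave 18 in shMYC1 against Resistant. The minimum change of 0.5 also gave 11 of the other members in MYC T58A, and 6, 17 and 9 of the partner genes in Resistant, MYC T58A and shMYC1. These fewer calls follow from the stricter rule or filter, and for the pseudocount the cause was not tested. In shMYC2 against Resistant the total called moved by at most 1.5 times, but quantile normalisation changed its split over the clustered genes to 6 higher and 29 lower, against 1 and 44.

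Leaving out 1 library at a time gave 24 to 26, 18 to 21, 21 to 26 and 43 to 45 clustered genes in Resistant, MYC T58A, shMYC1 and shMYC2, 16 to 17, 15 to 16, 18 to 19 and 19 other members, and 27 to 31, 41 to 44, 38 to 48 and 55 to 56 partner genes. edgeR's quasi-likelihood test called 31, 31, 30 and 44 clustered genes and DESeq2 27, 28, 29 and 44. Without the 3 libraries labelled shMYC2, an alternative chosen after seeing the data, 29, 29 and 32 clustered genes and 18, 17 and 20 others were called in the first 3 comparisons.

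Of the 40 differences of members given in full, over 746 values under these alternatives, 743 kept their direction and call and 0 reversed. With a pseudocount of 0.1, 3 lost the call: PCDH11X in Resistant (adjusted p = 0.094), PCDHB4 in MYC T58A (adjusted p = 0.095) and PCDHB14 in shMYC1 (adjusted p = 0.12). The 40 were picked as the largest called differences of the same data, so most were likely to keep their call. A member that a setting filtered out was not counted as lost. Of 84 log2 ratios of cluster sums 4 moved by more than the spread between libraries, all with total-count scaling: 0.58 and -0.73 for PCDHB and PCDHG in MYC T58A, and -2.13 and -1.27 in shMYC2. No paired analysis was possible because the columns carry no replicate number of the labels. Of the clustered genes, 38 had means under 3 reads in the libraries labelled shMYC2, where folds are loosely bounded, and shared exons limit PCDHA and PCDHG.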
